A study of Mus musculus with 10 samples.

Results

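Histone-modifying enzymes write or erase the chemical marks on histone tails, and their genes were followed in cortical microglia, macrophages that live in the brain, of mice given the bacterial cell wall component lipopolysaccharide (LPS) and of mice given saline. The members are the 65 genes of the 40789 in the count table whose symbol begins with Hdac, Sirt, Kdm, Kmt, Setd, Kat or Prmt followed by a digit. 1 further symbol with such a beginning, the pseudogene Kat2b-ps, was left out by the same rule. The rule used names only and no measured value. It covered 11 histone deacetylases, 7 sirtuins, 18 lysine demethylases, 5 KMT lysine methyltransferases, 9 SETD proteins, 7 lysine acetyltransferases and 8 arginine methyltransferases. 2 members carry older symbols, Setd8 for Kmt5a and Prmt10 for Prmt9.

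RNA sequencing was done on GFP-high cells sorted from the cortex, with 1 library per mouse. The LPS group was 5 mice that received 4 mg/kg LPS into the peritoneum, and the control group was 5 mice that received saline. All 10 mice were female, 2 to 3 months old, on a C57BL6/J background and CX3CR1+/egfp, so every animal, controls included, had 1 copy of the fractalkine receptor gene replaced by the reporter. The cells were taken 24 hours after injection. As background, this reporter is also carried by monocytes and by macrophages at the borders of the brain, and the sort rests on its brightness.

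Acetyl groups on histone lysines are placed by acetyltransferases and removed by deacetylases and sirtuins, and they go with open, transcribed chromatin. Methyl groups are placed on lysines by SET domain enzymes and removed by demethylases, and their effect depends on the residue: H3K4 and H3K36 methylation go with active genes, H3K9 and H3K27 methylation with silent ones. Arginine methyltransferases act on histones and on many RNA-binding and ribosomal proteins. In macrophages such enzymes are known to set which inflammatory genes can be switched on and how long they stay on.

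Of the 65 members, 62 passed the filter on low counts and were tested with edgeR, among 13793 genes. After LPS, 22 members were lower and 7 higher at an adjusted p under 0.05, which is 35.5% and 11.3% of those tested and 46.8% in either direction. Over all genes tested the share called lower was 22.5% the share called higher 22.4% and the share in either direction 45.0%. The change was at least 2-fold for 10 members that fell and for 1 that rose, Setd6, where 9.93% and 10.4% of all genes reached that size. The median log2 fold change, LPS over saline, was -0.17 over the 62 members and 0.00 over all genes tested. For 17 members every LPS mouse lay below every saline mouse and for 3 members every LPS mouse lay above, while 15.7% and 14.1% of all genes did so.

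Demethylases and KMT methyltransferases made up most of what fell: 10 of 16 tested demethylases and 4 of 5 KMT genes were lower. The other 8 were the deacetylases Hdac9, Hdac10 and Hdac11, the acetyltransferases Kat6a and Kat7, Setd2 and Setd7, and Prmt2. The 7 that rose were Kdm7a, Setd6, Sirt6, Sirt7, Prmt3, Prmt5 and Prmt7. The 33 other tested members had log2 fold changes between -0.51 and 0.74 and did not pass the threshold, which does not show that their levels were alike. Counts by class are small and are to be read against the shares of all genes tested, 22.5% lower and 22.4% higher. Demethylase and KMT genes are long, at medians of 1.97 and 5.36 times the median tested gene. Of all tested genes at least 1.80 times that length, 44.6% were called lower and 6.25% higher.

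**Figure D1:**
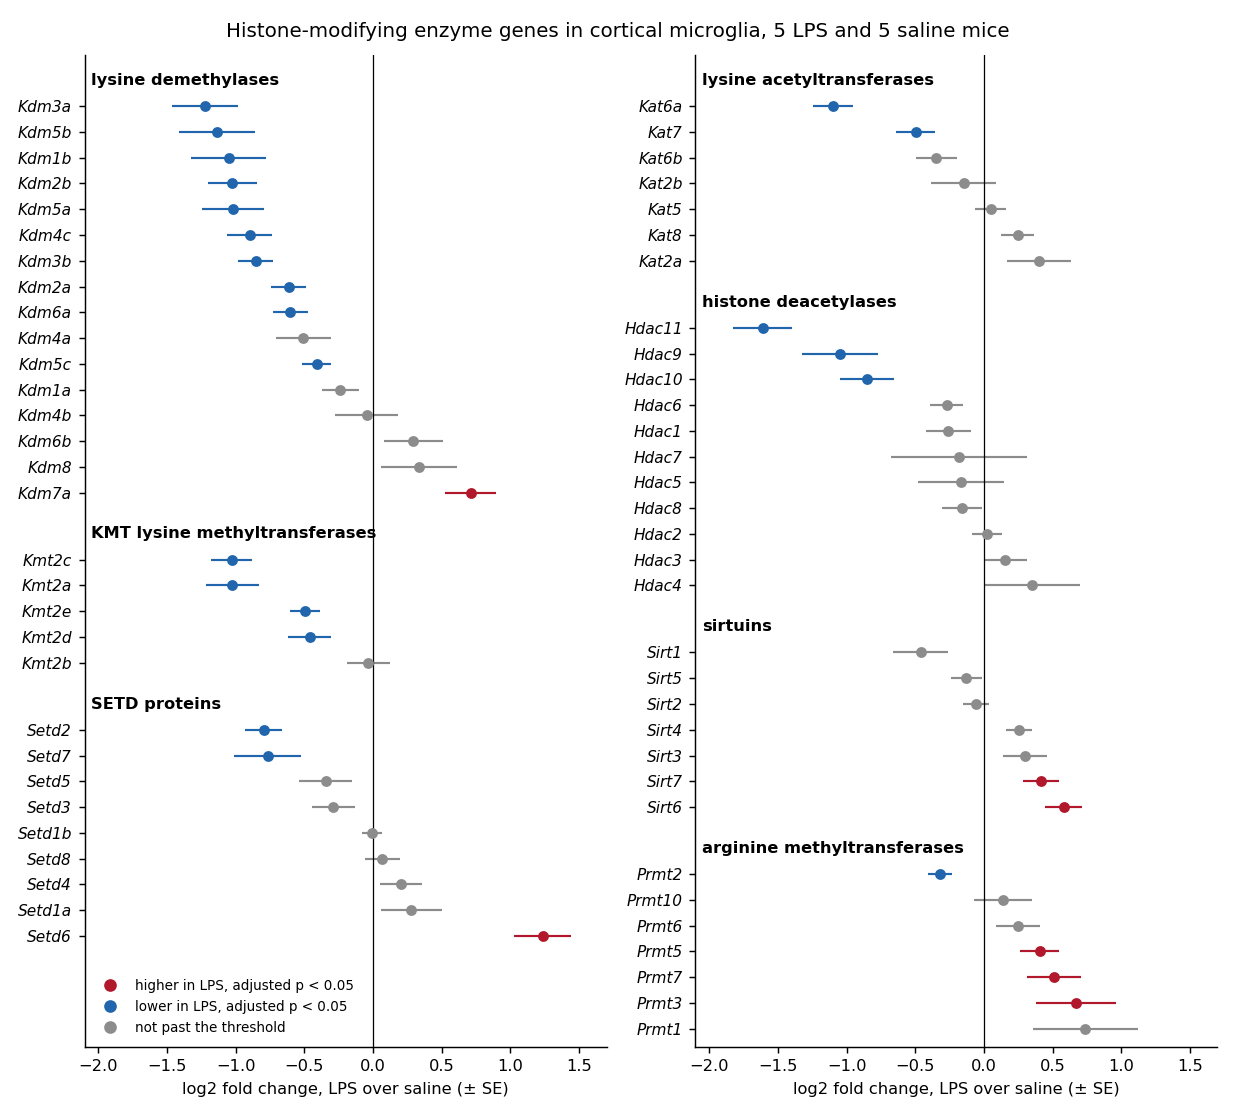
Log2 fold change, LPS over saline, of the 62 tested histone-modifying enzyme genes by class, with the standard error over 5 LPS and 5 saline mice as bars (x axis, log2 scale) and 1 row per gene. Most demethylase and KMT genes lie to the left of 0, Hdac11 lies farthest left at -1.61 and Setd6 farthest right at 1.24.

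Several features of the libraries run alongside these values. Total counts were 12928007 to 15332121 in LPS and 11577295 to 15274421 in saline (exact two-sided permutation p = 0.841, n = 5 and 5). With tested genes split by length into 5 groups of equal number, the group of the shortest genes held 23.4% ± 3.57 of counts in LPS and 14.8% ± 2.24 in saline, and the group of the longest 11.1% ± 1.68 in LPS and 15.7% ± 1.53 in saline (SD, n = 5 each; exact two-sided permutation p = 0.00794 for each, the smallest that 5 against 5 can give). Over the whole table longer genes had lower fold changes, and fold changes are given below also with each library's trend over gene length removed. Of the LPS mice, replicate 4 had the highest value for 27 of the 62 tested members and for 28.6% of all genes tested, and results that it carries are also given without it. The defining microglia genes were present in every library: the sum over 8 markers, Cx3cr1, P2ry12 and Tmem119 among them, was 13550 to 22700 CPM (counts scaled to library size) in LPS and 43960 to 51240 CPM in saline, with 5 of 8 lower. The sum over 7 monocyte genes was 78.1 to 219 CPM in LPS and 13.4 to 21.3 CPM in saline, with 3 of 7 higher, 1 lower and Ly6c2 and Chil3 under 1 CPM on average. The sum over 6 genes of border macrophages was 24.0 to 42.8 CPM in LPS and 9.84 to 14.8 CPM in saline, with 2 of 6 higher. Of these, Cd163, Lyve1 and Pf4 were under 1 CPM on average. For 7 neutrophil genes it was 1.51 to 18.1 CPM in LPS and at most 0.427 CPM in saline, with 1 of 7 higher and Mpo and Elane at 0 in every library. S100a9, Ly6g and Camp were also under 1 CPM on average. Sums over T and NK cell genes and over B cell genes stayed under 3 CPM in every library. The 4 endothelial genes summed to 4.78 to 10.8 CPM in LPS and 49.3 to 72.9 CPM in saline, with 1 of 4 lower. Cldn5 was at 0 in every library and Flt1 and Cdh5 were under 1 CPM on average, so that sum was mostly Pecam1. The 4 astrocyte genes summed to 134 to 342 CPM in LPS and 355 to 409 CPM in saline. Of these 1 was lower, and Aqp4 and Aldh1l1 were under 1 CPM on average. The part of these shifts in the members' values was not tested, and in such bulk samples fewer cells of a type and less RNA per cell cannot be told apart.

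Promoter windows were taken from RefSeq (build GRCm38.p6) for 53 of the 65 members, 73 windows in all, each reaching from 250 bases before a start site to 50 bases after it. Below are those of the deacetylase gene with the largest fall, Hdac11, and of the 3 genes whose LPS mice all lay above the saline mice, Setd6, Sirt6 and Kdm7a. Capitals mark matches, on either strand, to the NRF1 motif, the ETS motif CCGGAAGT, the E-box CACGTG, the CRE TGACGTCA, the IRF element or the NF-kB motif; matches may overlap.
Hdac11 (chr6:91156565-91156864, plus strand): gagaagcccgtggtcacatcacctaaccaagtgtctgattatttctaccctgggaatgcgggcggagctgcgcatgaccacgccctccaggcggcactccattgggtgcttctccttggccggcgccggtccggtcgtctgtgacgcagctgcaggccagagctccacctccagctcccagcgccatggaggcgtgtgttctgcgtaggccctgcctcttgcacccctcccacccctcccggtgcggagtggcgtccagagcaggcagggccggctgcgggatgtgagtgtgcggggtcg
Setd6 (chr8:95715663-95715962, plus strand): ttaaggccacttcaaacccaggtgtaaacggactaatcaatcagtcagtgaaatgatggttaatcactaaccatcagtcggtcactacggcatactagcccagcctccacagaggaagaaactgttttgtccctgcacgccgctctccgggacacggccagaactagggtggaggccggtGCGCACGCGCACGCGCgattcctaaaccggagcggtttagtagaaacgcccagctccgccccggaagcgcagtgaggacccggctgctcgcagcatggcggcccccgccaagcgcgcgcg
Sirt6, upstream start (chr10:81627517-81627816, minus strand): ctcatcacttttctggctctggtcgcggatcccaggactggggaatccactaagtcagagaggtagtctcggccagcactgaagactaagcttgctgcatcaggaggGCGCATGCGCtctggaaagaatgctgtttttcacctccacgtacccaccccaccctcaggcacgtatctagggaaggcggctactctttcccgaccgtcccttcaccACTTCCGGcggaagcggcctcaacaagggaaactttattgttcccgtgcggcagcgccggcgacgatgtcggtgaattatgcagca
Sirt6, downstream start (chr10:81627273-81627572, minus strand): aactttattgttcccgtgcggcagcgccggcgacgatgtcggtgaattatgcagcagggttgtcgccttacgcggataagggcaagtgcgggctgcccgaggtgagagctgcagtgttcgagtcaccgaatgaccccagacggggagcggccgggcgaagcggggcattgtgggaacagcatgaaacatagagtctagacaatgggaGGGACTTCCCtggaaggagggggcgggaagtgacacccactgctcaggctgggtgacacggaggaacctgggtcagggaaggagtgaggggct
Kdm7a (chr6:39206724-39207023, minus strand): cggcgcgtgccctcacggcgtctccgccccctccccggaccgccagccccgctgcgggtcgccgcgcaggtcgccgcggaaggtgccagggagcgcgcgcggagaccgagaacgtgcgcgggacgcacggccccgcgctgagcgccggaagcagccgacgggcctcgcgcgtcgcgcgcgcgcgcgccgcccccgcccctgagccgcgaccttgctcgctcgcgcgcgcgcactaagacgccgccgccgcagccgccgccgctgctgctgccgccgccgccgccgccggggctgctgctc
The Setd6 window held 2 overlapping NRF1 matches in the run GCGCACGCGCACGCGC. Sirt6 held an NRF1 and an ETS match in the window of its upstream start and an NF-kB match in that of its downstream start. Hdac11 and Kdm7a held none of the motifs marked, and Kdm7a had the most CpG dinucleotides of those shown, 65 in its 300 bases, against 22 in Hdac11, 28 in Setd6 and 20 and 21 in the Sirt6 windows. Over all member windows the median GC content was 61.3% and the median number of CpG 21, where 21263 windows of protein-coding genes had medians of 56.3% and 13. An NRF1 match stood in 7 of 73 member windows and 6.38% of protein-coding windows, an E-box in 7 and 7.84%, an ETS match in 6 and 5.15%, and an NF-kB match in 5 and 4.81%. A CRE was found in 1 member window and 2.23% of protein-coding windows, and an IRF element in 1 and 3.35%. These matches describe letters in a window and not binding. By direction, an NRF1 match stood in 2 of 8 windows of members that rose, 3 of 23 windows of members that fell, 1 of 38 windows of the other tested members and 1 of 4 windows of members too low to test. In the same order, the CCAAT box stood in 2, 7, 21 and 1 windows and the GC box GGGCGG in 6, 15, 21 and 3. The 8 windows came from 7 genes and the 23 from 16, and differences by direction were not tested.

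Lysine demethylases remove methyl groups from histone lysines, most of them with a JmjC domain that needs iron and oxoglutarate, and the LSD members with flavin. Of 18 genes 16 were tested, 10 fell and 1 rose, with a median log2 fold change of -0.61. Their summed level was 511 ± 94.3 CPM in LPS and 741 ± 92.4 CPM in saline (SD, n = 5 each). With the gene-length trend removed, 7 of the 10 were still lower and the median was -0.20, while 18.4% of all genes were called lower and 20.1% higher in that fit.

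Kdm3a (Entrez gene 104263, chr6:71588970-71632990 on GRCm38), an eraser of H3K9 methylation that responds to low oxygen, had 27.4, 22.9, 26.2, 48.4 and 26.4 CPM in LPS mice, against 62.8, 65.8, 77.5, 95.95 and 51.9 CPM in saline mice. Every LPS mouse lay below every saline mouse, and replicate 4 lay nearest to them. The level was 2.34-fold lower in LPS (log2 fold change -1.22 ± 0.24 SE, edgeR adjusted p = 0.000433), and the log2 fold change was -1.46 without LPS replicate 4 and -0.86 with the length trend removed. Its relative Kdm3b, also an H3K9 demethylase, averaged 56.99 ± 6.82 CPM in LPS and 103 ± 16.5 CPM in saline (SD, n = 5 each; edgeR adjusted p = 0.000289), again with no overlap of the groups.

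The KDM5 enzymes remove methyl groups from H3K4, the mark of active promoters, and all 3 tested members fell. Kdm5b (chr1:134560178-134632878) had 7.78, 15.8, 14.4, 23.9 and 16.4 CPM in LPS mice, against 31.9, 30.6, 37.7, 42.9 and 29.4 CPM in saline mice. Here too the groups were apart, with replicate 1 lowest and replicate 4 highest among the LPS mice. Kdm5b was 2.199-fold lower (log2 fold change -1.14 ± 0.28 SE, edgeR adjusted p = 0.00142). Kdm5a (chr6:120364099-120444574) had 60.2, 68.5, 86.2, 107 and 53.5 CPM in LPS, against 145, 185, 149, 175 and 107 CPM in saline, and LPS replicate 4 and saline replicate 5 nearly met at 107 CPM. It was 2.03-fold lower (log2 fold change -1.02 ± 0.23 SE, edgeR adjusted p = 0.000995). X-linked Kdm5c moved less, with a log2 fold change of -0.41 (edgeR adjusted p = 0.0221), and its sign turned to 0.18, not past the threshold, once the length trend was removed. The call of Kdm5c was also lost in 3 of the 10 fits that leave out a mouse. Y-linked Kdm5d, which these female mice should lack, had 1 count in all 10 libraries.

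The LSD enzyme Kdm1b, an H3K4 demethylase that in mice serves DNA methylation in the egg, had 9.46, 10.9, 11.2, 19.3 and 10.4 CPM in LPS, against 18.4, 34.3, 20.04, 34.9 and 19.6 CPM in saline. LPS replicate 4 stood apart from the other LPS mice and above saline replicate 1. Kdm1b was 2.07-fold lower (log2 fold change -1.05 ± 0.27 SE, edgeR adjusted p = 0.00365), and its log2 fold change was -1.27 without that mouse. The better known LSD enzyme Kdm1a averaged 20.3 ± 1.83 CPM in LPS and 23.9 ± 4.27 CPM in saline and did not pass the threshold (edgeR adjusted p = 0.227).

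KDM2 and KDM7 enzymes went in opposite directions. Kdm2b, an H3K36 demethylase that binds unmethylated CpG and brings a Polycomb complex there, had 11.1, 12.1, 9.78, 9.25 and 6.18 CPM in LPS, against 17.98, 20.2, 20.04, 22.9 and 17.4 CPM in saline. The groups did not overlap and it was 2.04-fold lower (log2 fold change -1.03 ± 0.18 SE, edgeR adjusted p = 0.000646). Of its exonic bases 10.7% are shared with Rnf34 on the opposite strand. Kdm2a was 1.53-fold lower (edgeR adjusted p = 0.00299), but its log2 fold change of -0.61 shrank to -0.14 without the length trend and no longer passed the threshold (edgeR adjusted p = 0.314). Kdm7a (Entrez gene 338523, chr6:39136620-39206773), which erases methyl groups from H3K9 and H3K27, had 81.8, 95.5, 98.99, 164 and 102 CPM in LPS, against 58.9, 60.2, 64.8, 76.7 and 71.6 CPM in saline. All LPS mice lay above all saline mice, and replicate 4 stood far above the rest. Kdm7a was the only demethylase gene called higher, 1.64-fold (log2 fold change 0.71 ± 0.18 SE, edgeR adjusted p = 0.00510). Without LPS replicate 4 the log2 fold change was 0.51 (edgeR adjusted p = 0.00442), and with the length trend removed it was 1.22. Kdm7a is 3.04 times as long as the median tested gene.

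The KDM4 enzymes erase H3K9 and H3K36 methylation, and of 3 tested only Kdm4c passed the threshold, at 19.3 ± 3.85 CPM in LPS and 36.1 ± 6.02 CPM in saline (SD, n = 5 each; edgeR adjusted p = 0.000761). Kdm4a and Kdm4b had log2 fold changes of -0.51 and -0.04, and Kdm4d was too low to test, with at most 3 counts in any library. The KDM6 enzymes erase the Polycomb mark H3K27 methylation. X-linked Kdm6a was 1.52-fold lower, at 26.2 ± 4.06 CPM in LPS and 39.7 ± 5.28 CPM in saline (SD, n = 5 each; edgeR adjusted p = 0.00448). Its log2 fold change of -0.60 became -0.21 with the length trend removed and the call ended (edgeR adjusted p = 0.134). Kdm6b, known as an early target of LPS in cultured macrophages, had 27.3, 28.3, 18.01, 31.3 and 19.7 CPM in LPS, against 26.7, 20.9, 17.3, 22.3 and 14.5 CPM in saline. The groups overlapped, and its log2 fold change of 0.29 ± 0.22 SE did not pass the threshold (edgeR adjusted p = 0.245). With the length trend removed the log2 fold change was 0.80 and did (edgeR adjusted p = 0.00271), so the call for Kdm6b depends on that correction. Kdm8 did not pass the threshold (log2 fold change 0.33).

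**Figure D2:**
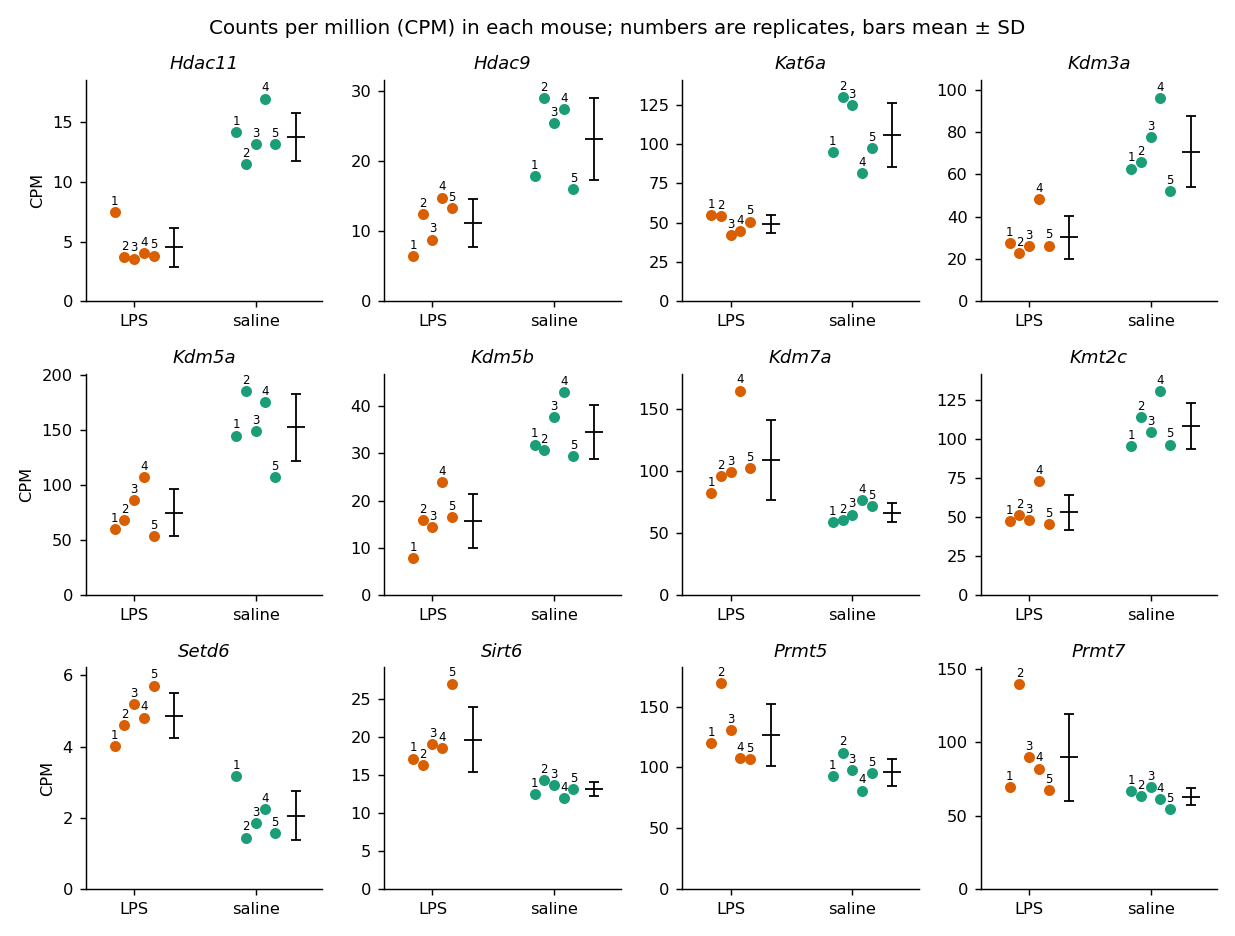
CPM (counts scaled to library size; y axis, linear from 0) of 12 enzyme genes in each of 5 LPS mice (orange) and 5 saline mice (green), with replicate numbers and, beside the points, the mean ± SD of each group. LPS mice lie below saline mice without overlap for Hdac11, Hdac9, Kat6a, Kdm3a, Kdm5a, Kdm5b and Kmt2c, above them for Kdm7a, Setd6 and Sirt6, and overlap with them for Prmt5 and Prmt7.

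The KMT2 genes encode the large MLL enzymes, which methylate H3K4 at promoters and enhancers, and 4 of 5 fell, with a median log2 fold change of -0.50. Together they had 395 ± 60.6 CPM in LPS and 602 ± 70.3 CPM in saline (SD, n = 5 each). They are among the longest genes measured, at a median of 5.36 times the median tested gene. With the length trend removed Kmt2c alone was still lower, and Kmt2b, at -0.04 before, was called higher (log2 fold change 0.45, edgeR adjusted p = 0.00694).

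Kmt2c (chr5:25271795-25498855), an enhancer H3K4 methyltransferase, had 47.2, 50.9, 48.1, 72.8 and 45.4 CPM in LPS, against 95.2, 114, 104, 130.5 and 96.3 CPM in saline. No LPS mouse reached a saline mouse, though replicate 4 lay above the other 4. Kmt2c was 2.04-fold lower (log2 fold change -1.03 ± 0.15 SE, edgeR adjusted p = 0.000137), and the log2 fold change was -1.17 without LPS replicate 4 and -0.30 with the length trend removed. Kmt2a (chr9:44803355-44881352), the MLL enzyme broken in mixed lineage leukaemia, had 37.99, 57.3, 37.3, 55.2 and 36.7 CPM in LPS, against 72.6, 98.4, 83.95, 121 and 81.8 CPM in saline. The groups were apart and the level 2.04-fold lower (log2 fold change -1.03 ± 0.19 SE, edgeR adjusted p = 0.000434), but the log2 fold change of -0.29 without the length trend did not pass the threshold (edgeR adjusted p = 0.0612).

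Kmt2e, whose SET domain has no known catalytic activity, had 102, 110.5, 93.1, 128 and 114 CPM in LPS, against 134, 138, 165, 179 and 158 CPM in saline. All LPS mice were lower, 1.41-fold on average (edgeR adjusted p = 0.00778). The log2 fold change of -0.50 became -0.05 with the length trend removed and did not pass the threshold (edgeR adjusted p = 0.758), and 13.3% of its exonic bases are shared with Srpk2 on the opposite strand. Kmt2d, the close relative of Kmt2c, had 130.3, 196, 166, 170 and 112 CPM in LPS, against 204, 193, 209, 249 and 212 CPM in saline, and LPS replicate 2 lay within the saline range. It was 1.38-fold lower (log2 fold change -0.46 ± 0.16 SE, edgeR adjusted p = 0.0268). The call was lost in 4 of the 10 fits that leave out a mouse. The sign turned to 0.33 with the length trend removed (edgeR adjusted p = 0.0566). With LPS replicate 4 left out as well, Kmt2d was called higher (0.38, edgeR adjusted p = 0.0274).

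The SETD genes were mixed: of 9, 1 rose (11.1%), 2 fell (22.2%) and 6 did not pass the threshold. Of all genes tested 22.4% rose and 22.5% fell. With the length trend removed, 4 SETD genes were called higher and 1 lower, where 20.1% and 18.4% of all genes were. Setd6 (Entrez gene 66083, chr8:95715634-95721507), a lysine methyltransferase known for marking the NF-kB subunit RelA, is a low-abundance transcript with raw counts of 48, 60, 67, 76 and 73 in LPS libraries, against 48, 17, 23, 36 and 22 in saline libraries. Scaled to library size these were 4.02, 4.61, 5.202, 4.82 and 5.71 CPM in LPS and 3.16, 1.44, 1.86, 2.25 and 1.57 CPM in saline. All LPS mice lay above all saline mice, with saline replicate 1 the nearest. Setd6 was 2.35-fold higher (log2 fold change 1.24 ± 0.21 SE, edgeR adjusted p = 0.00309), the only rise of at least 2-fold among the members, and 1.18 on the log2 scale with the length trend removed.

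Setd2, the H3K36 trimethylating enzyme that travels with RNA polymerase, had 44.9, 46.2, 47.3, 59.6 and 45.01 CPM in LPS, against 84.4, 77.8, 76.8, 112 and 71.8 CPM in saline. The groups did not overlap, and the level was 1.74-fold lower (log2 fold change -0.80 ± 0.13 SE, edgeR adjusted p = 0.000644). With the length trend removed the log2 fold change was -0.27 (edgeR adjusted p = 0.0427), and the call was lost when LPS replicate 4 was left out as well (edgeR adjusted p = 0.0522). Setd7, which methylates H3K4 and many other proteins, had 5.61, 3.38, 4.04, 7.04 and 6.03 CPM in LPS, against 8.23, 6.28, 8.08, 12.3 and 9.54 CPM in saline, with overlap. It was 1.702-fold lower (edgeR adjusted p = 0.0239), a call that was lost without LPS replicate 2 or 3 or saline replicate 4 and once the length trend was removed (then -0.32 on the log2 scale). Setd3, an actin histidine methyltransferase and the SETD transcript with the highest RPKM in LPS, averaged 6.86 ± 1.35 RPKM in LPS and 8.19 ± 0.825 RPKM in saline (SD, n = 5 each). Its log2 fold change of -0.29 did not pass the threshold with all mice (edgeR adjusted p = 0.155) but did without LPS replicate 4 (-0.42, edgeR adjusted p = 0.0233). Setd5 likewise passed only without that mouse (log2 fold change -0.48, edgeR adjusted p = 0.0296). The H3K4 methyltransferase genes Setd1a and Setd1b had log2 fold changes of 0.28 and -0.01, and were called higher with the length trend removed (0.66 and 0.55). Setd4, at 0.20 with no such correction, was called higher there too (0.56, edgeR adjusted p = 0.026). Of the exonic bases of Setd1a, 53.3% are shared with Gm49388 on the same strand, so its counts are uncertain. Setd8, which places the methyl group of H4K20, was near 0 on the log2 scale (0.07).

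Lysine acetyltransferases summed to 254 ± 19.7 CPM in LPS and 317 ± 10.7 CPM in saline (SD, n = 5 each). Per gene length they summed to 71.5 ± 6.82 RPKM in LPS and 72.6 ± 0.57 RPKM in saline. Of 7, 2 fell (28.6%, where 22.5% of all genes tested did) and the other 5 did not pass the threshold. Kat6a (Entrez gene 244349, chr8:22859442-22943259), the MYST enzyme MOZ that blood stem cells need, had 54.6, 54.2, 42.3, 44.8 and 50.6 CPM in LPS, against 94.98, 129.9, 125, 81.8 and 97.6 CPM in saline. Every LPS mouse lay well below the lowest saline mouse, and the 5 LPS values lay close together. Kat6a was 2.15-fold lower (log2 fold change -1.10 ± 0.15 SE, edgeR adjusted p = 6.35e-05), and -0.58 on the log2 scale with the length trend removed (edgeR adjusted p = 0.0192).

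Kat7, the MYST enzyme HBO1, had 52.2, 50.2, 53.6, 51.8 and 34.99 CPM in LPS, against 78.4, 77.6, 58.6, 63.8 and 64.02 CPM in saline. Replicate 5 was low among the LPS mice, and the groups were apart by a small margin. The fall was 1.41-fold (log2 fold change -0.50 ± 0.14 SE, edgeR adjusted p = 0.0139) and shrank to a log2 fold change of -0.08, not past the threshold, with the length trend removed (edgeR adjusted p = 0.677). Kat5, the enzyme TIP60 of the NuA4 complex, has with Kat8 the highest RPKM of its class and averaged 19.6 ± 2.01 RPKM in LPS and 18.5 ± 2.54 RPKM in saline, with a log2 fold change of 0.05. Its exons share 18.9% of their bases with Rnaseh2c on the opposite strand. Kat6b, Kat8 and the GNAT enzymes Kat2a and Kat2b had log2 fold changes between -0.35 and 0.40, none of them past the threshold.

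Of the 11 zinc-dependent histone deacetylases, 3 fell (27.3%, where 22.5% of all genes tested did) and the other 8 did not pass the threshold. Hdac11 (Entrez gene 232232, chr6:91156670-91174692), the class IV enzyme, which removes fatty acyl groups and in mouse antigen-presenting cells represses Il10, fell most of all members. It had raw counts of 89, 48, 46, 64 and 49 in LPS libraries, against 215, 135, 163, 272 and 185 in saline libraries. In CPM these were 7.45, 3.69, 3.57, 4.06 and 3.84 in LPS and 14.2, 11.5, 13.2, 16.97 and 13.2 in saline. Replicate 1 stood above the other LPS mice but below every saline mouse. Hdac11 was 3.06-fold lower (log2 fold change -1.61 ± 0.21 SE, edgeR adjusted p = 0.000102), and its log2 fold change was -1.72 with the length trend removed. Of its exonic bases 22.4% are shared with Gm44002 on the opposite strand, whose reads cannot be told apart where strand was not counted.

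Hdac9, a class IIa enzyme that acts mainly as a partner of transcription factors, had 6.44, 12.4, 8.77, 14.8 and 13.3 CPM in LPS, against 17.9, 28.9, 25.4, 27.4 and 15.9 CPM in saline. The highest LPS mouse lay just under the lowest saline mouse. Hdac9 was 2.07-fold lower (log2 fold change -1.05 ± 0.28 SE, edgeR adjusted p = 0.00307), but at 4.77 times the length of the median tested gene its log2 fold change of -0.36 without the length trend did not pass the threshold (edgeR adjusted p = 0.164). Hdac10, a class IIb enzyme that deacetylates polyamines, had 49.3, 59.1, 56.4, 37.3 and 30.7 CPM in LPS, against 77.8, 100.3, 82.01, 85.5 and 74.5 CPM in saline. All LPS mice lay below all saline mice, 1.804-fold on average (log2 fold change -0.85 ± 0.20 SE, edgeR adjusted p = 0.00153), and removing the length trend left the log2 fold change at -0.86.

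The class I genes Hdac1, Hdac2 and Hdac3, whose enzymes sit in the large corepressor complexes, and Hdac8 had log2 fold changes of -0.26, 0.02, 0.15 and -0.16, and 0 of 4 passed the threshold in edgeR, 0 of 4 at an unadjusted p under 0.05 and 0 of 4 in DESeq2. Hdac1 was called lower with the length trend removed (-0.43, edgeR adjusted p = 0.0361). Hdac4 had 39.7, 70.1, 63.7, 144 and 42.4 CPM in LPS, against 49.1, 52.3, 49.9, 65.4 and 65.5 CPM in saline. A high value in LPS replicate 4 made its mean higher in LPS, and the log2 fold change of 0.35 with all mice was -0.06 without that mouse. With the length trend removed Hdac4 was called higher, at 0.84 with all mice (edgeR adjusted p = 0.0109). It was also called without LPS replicate 4 in such a fit (0.56, edgeR adjusted p = 0.0126). Hdac7 was the lowest of the tested members per gene length, at 0.141 ± 0.140 RPKM in LPS and 0.155 ± 0.0533 RPKM in saline (SD, n = 5 each), and 33 of its 65 counts in LPS came from replicate 1.

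Sirtuins remove acyl groups with NAD as a cosubstrate. Of 7, 2 rose (28.6%, where 22.4% of all genes tested did) and the other 5 did not pass the threshold. With the length trend removed, 1 sirtuin was called higher and 1 lower. Sirt6 (Entrez gene 50721, chr10:81621787-81627792), a chromatin-bound deacetylase of H3K9 that is known to restrain NF-kB targets, had 17.1, 16.3, 19.02, 18.6 and 27.01 CPM in LPS, against 12.4, 14.3, 13.7, 11.98 and 13.2 CPM in saline. The groups did not overlap and LPS replicate 5 was the highest. Sirt6 was 1.495-fold higher (log2 fold change 0.58 ± 0.14 SE, edgeR adjusted p = 0.0130), and 0.57 on the log2 scale with the length trend removed. Sirt7, the nucleolar sirtuin, had 60.6, 76.2, 78.8, 98.2 and 90.2 CPM in LPS, against 63.96, 61.9, 56.5, 53.6 and 66.9 CPM in saline, and only LPS replicate 1 lay within the saline range. It was 1.33-fold higher (edgeR adjusted p = 0.0284), a call lost in 4 of the 10 fits that leave out a mouse. The log2 fold change of 0.42 became 0.08 with the length trend removed and did not pass the threshold (edgeR adjusted p = 0.694). In the length group that holds Sirt7, 34.52% of all genes were called higher and 10.99% lower, with a median log2 fold change of 0.29. The part of gene length in the rise of Sirt7 was not tested.

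Sirt2, the cytoplasmic tubulin deacetylase, had the highest level per gene length of all members in both groups, 82.03 ± 5.33 RPKM in LPS and 83.3 ± 11.3 RPKM in saline (SD, n = 5 each). In CPM it had 128, 144, 150.5, 151 and 152 in LPS, against 122, 165, 148, 152 and 169 in saline, and the groups overlapped throughout (log2 fold change -0.06 ± 0.10 SE, edgeR adjusted p = 0.721). Removing the length trend moved Sirt2 to -0.36 on the log2 scale, a fall past the threshold (edgeR adjusted p = 0.0319). That fall stayed past the threshold when LPS replicate 4 was left out as well (-0.41, edgeR adjusted p = 0.01715). The result for Sirt2 thus depends on that correction. Sirt1, the nuclear sirtuin best known from inflammation, averaged 9.29 ± 2.36 CPM in LPS and 12.8 ± 2.34 CPM in saline. Its log2 fold change of -0.46 did not pass the threshold (edgeR adjusted p = 0.0895) and did without LPS replicate 4 (-0.61, edgeR adjusted p = 0.0201). The mitochondrial sirtuins Sirt3, Sirt4 and Sirt5 had log2 fold changes of 0.30, 0.26 and -0.13, none past the threshold.

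Arginine methyltransferases had the highest median of the classes, a log2 fold change of 0.40, and 3 of 7 tested rose while 1 fell. Prmt5 (chr14:54507182-54517470), which makes symmetric dimethylarginine on histones and splicing proteins, had 120, 169, 130.5, 108 and 107 CPM in LPS, against 92.6, 112, 98.01, 80.8 and 95.6 CPM in saline. The groups overlapped, and LPS replicate 2 was the highest. Prmt5 was 1.32-fold higher (log2 fold change 0.40 ± 0.14 SE, edgeR adjusted p = 0.0410). Prmt7, which places only a single methyl group, had 69.5, 139.8, 90.2, 82.1 and 67.2 CPM in LPS, against 66.8, 63.1, 69.2, 61.4 and 54.6 CPM in saline, again with LPS replicate 2 far above the rest. It was 1.43-fold higher (log2 fold change 0.51 ± 0.20 SE, edgeR adjusted p = 0.0362). Prmt3, known for methylating a ribosomal protein, had 12.2, 24.8, 12.9, 18.7 and 8.92 CPM in LPS, against 7.11, 8.15, 11.5, 11.1 and 10.9 CPM in saline, with overlap and a wide spread in LPS. The rise was 1.59-fold (log2 fold change 0.67 ± 0.29 SE, edgeR adjusted p = 0.0483).

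None of these 3 calls held without LPS replicate 2: the log2 fold change was then 0.28 for Prmt5, 0.30 for Prmt7 and 0.44 for Prmt3, with edgeR adjusted p of 0.114, 0.101 and 0.152. Over the 10 fits that leave out a mouse, the call was lost in 7 for Prmt5, 7 for Prmt7 and 8 for Prmt3, and those of Prmt5 and Prmt3 also ended with the length trend removed (edgeR adjusted p = 0.0529 and 0.107). Prmt2, per gene length the most abundant member after Sirt2 in saline, had 70.6, 69.9, 73.9, 69.2 and 60.4 CPM in LPS, against 94.8, 80.9, 89.2, 72.8 and 91.7 CPM in saline. LPS replicate 3 alone lay within the saline range, just above saline replicate 4. The fall was 1.25-fold (log2 fold change -0.32 ± 0.09 SE, edgeR adjusted p = 0.0447), just inside the threshold. The call was lost in 19 of 25 alternatives, among them 9 of the 10 fits that leave out a mouse and DESeq2 (adjusted p = 0.0557), while the fall was larger with the length trend removed (-0.52, edgeR adjusted p = 0.00160). Prmt1, the main source of asymmetric dimethylarginine, had 26.5, 32.5, 23.1, 14.8 and 20.7 CPM in LPS, against 9.48, 21.7, 16.2, 5.99 and 17.3 CPM in saline. Its log2 fold change of 0.74 ± 0.38 SE, the largest rise in the class, missed the threshold in edgeR (adjusted p = 0.0596) and passed it in DESeq2 (adjusted p = 0.0415). With the length trend removed the log2 fold change of Prmt1 was 0.39 and did not pass (edgeR adjusted p = 0.317). Prmt6 and Prmt10 did not pass the threshold, and Prmt8, a gene of neurons, was too low to test with 13 counts in LPS, 11 of them in replicate 1, and 0 in saline.

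**Figure D3:**
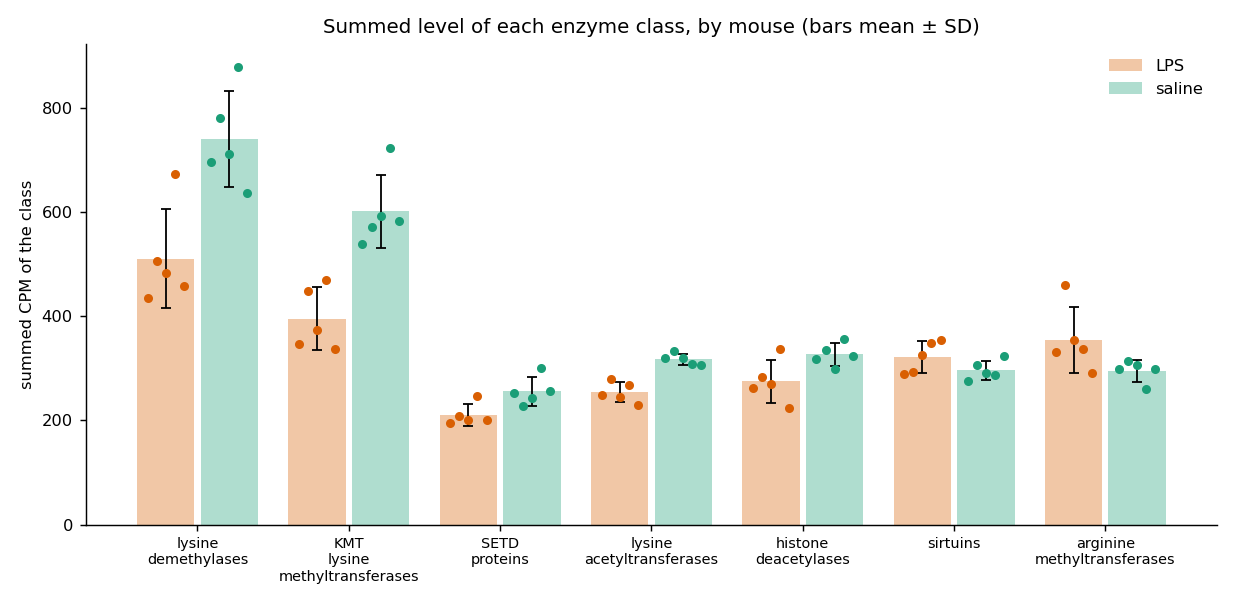
Summed CPM of each enzyme class (y axis, linear from 0) in each of 5 LPS mice (orange points) and 5 saline mice (green points), with bars at the mean and error bars of 1 SD. The demethylase sum was 511 CPM in LPS and 741 CPM in saline, while the sirtuin sum was 322 CPM in LPS and 297 CPM in saline.

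In levels per gene length (RPKM), the order of the members was much alike at the top. In LPS the 5 highest were Sirt2 (82.03 ± 5.33 RPKM), Sirt7 (49.5 ± 8.04), Prmt5 (49.2 ± 10.6), Prmt7 (34.3 ± 11.7) and Prmt2 (32.9 ± 2.45). In saline they were Sirt2 (83.3 ± 11.3 RPKM), Prmt2 (40.1 ± 4.77), Sirt7 (36.3 ± 3.77), Prmt5 (36.2 ± 5.02) and Hdac10 (30.03 ± 3.77). Sirt2 stood clear of the next gene by more than their SDs in both groups, whereas Prmt2, Sirt7 and Prmt5 in saline, and Sirt7 and Prmt5 in LPS, differed by less than the SD of the higher gene. Kdm5a ranked 13 of 62 in saline and 25 in LPS, and Kdm3a 14 in saline and 32 in LPS. The KMT genes, with large counts but very long transcripts, summed to 33.8 ± 4.09 RPKM in LPS and 48.4 ± 4.73 RPKM in saline, less than Sirt2 alone.

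The direction of the members was also set beside gene length. Of the 62 with a length, none is in the group of the shortest genes and 28 are in the group of the longest. Among those longest genes 17 of 28 members fell, 60.7%, where 44.6% of all genes of that length did; the median log2 fold change was -0.50 for members and -0.46 for all genes there. In the next shorter group 2 of 11 members fell, where 33% of all genes did, and in the middle group 1 of 11, where 21.8% did. With each library's length trend removed, 10 members were higher and 15 lower, and 20.1% and 18.4% of all genes were. Of the 7 and 22 called before, 4 and 13 were called in the same direction in that fit. The 4 were Kdm7a, Setd6, Sirt6 and Prmt7, and the median over members was then -0.02.

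**Figure D4:**
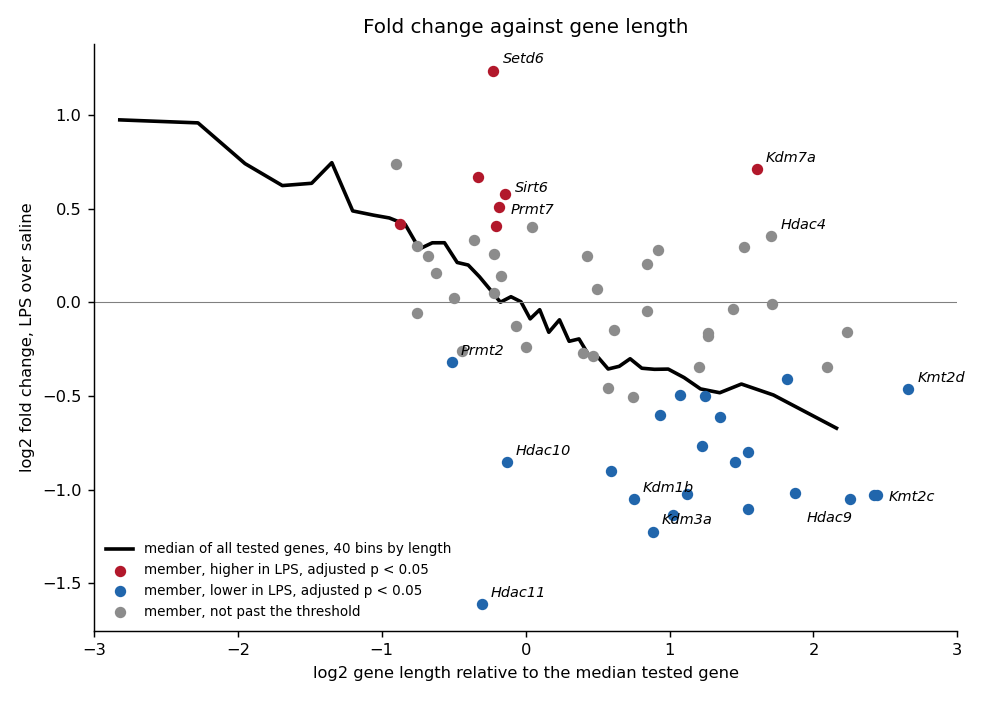
Log2 fold change, LPS over saline (y axis), of the 62 tested members against gene length relative to the median tested gene (x axis, log2 scale), with the running median of all tested genes as a black line. The line falls with length, and Hdac11 and Hdac10 lie far below it and Setd6 and Kdm7a far above it, while Kmt2d and Hdac9 lie near the long end.

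Without LPS replicate 4, 24 members were lower and 6 higher, where 25.2% and 25.5% of all genes were. Over 25 other ways of scaling, filtering, testing or leaving out a mouse, 14 of the 29 calls were made every time a value could be had. They were the rises of Kdm7a, Setd6 and Sirt6 and the falls of Hdac10, Hdac11, Kat6a, Kdm1b, Kdm2b, Kdm3a, Kdm3b, Kdm4c, Kdm5a, Kdm5b and Kmt2c.

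Genes that work with these enzymes were followed in 17 lists of complex partners and of writers, erasers and readers outside the name rule. Of 197 such genes 184 were tested, 52 fell and 24 rose, 28.3% and 13.04%, where 22.5% and 22.4% of all genes tested did, and their median log2 fold change was -0.16. The counts by complex that follow are small and are to be read against those shares of all genes. In Polycomb repressive complex 2, which methylates H3K27, 3 of 10 fell and 1 rose. The methyltransferase Ezh1 averaged 35.6 ± 7.204 CPM in LPS and 89.2 ± 13.97 CPM in saline, and its cofactor Eed 177 ± 17.8 CPM in LPS and 88.4 ± 7.603 CPM in saline (SD, n = 5 each; edgeR adjusted p = 2.15e-05 and 2.85e-05). For both the groups did not overlap, with Ezh1 below and Eed above. In Polycomb repressive complex 1, 2 of 17 fell and 1 rose, and its ubiquitin ligase gene Rnf2 had a log2 fold change of -0.84. With the length trend removed, 2 of the falls and the rise in complex 2 were still called. In complex 1, 1 of the falls and 0 of the rises were. Of 7 H3K9 methyltransferases only Prdm2 passed the threshold (-0.53, and 0.06 and not past it with the length trend removed). Of 13 other histone methyltransferases 5 fell, Smyd4 (-0.96) and Ash1l (-0.91) among them, and Prdm16 rose (0.99). Only 2 of those 5 falls, and the rise, were still called with the length trend removed, and 3 of the 13 were then called higher. Of 12 cofactors of the KMT2 enzymes 3 fell and Pagr1a rose (0.69), a call that ended with the length trend removed (0.22). In that fit 1 of the 3 falls was still called. Of 10 further JmjC genes 4 fell and Jmjd6 rose (0.60). With the length trend removed, a fit that held 9 of the 10, the call of Jmjd6 stayed and 0 of the 4 falls were called.

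Of 11 other acetyltransferases 5 fell and 1 rose. The coactivators Crebbp and Ep300 had log2 fold changes of -0.66 and -0.70 and Ncoa3 of -0.85. They were -0.11, -0.22 and -0.38 with the length trend removed, and the calls of Crebbp and Ep300 ended (edgeR adjusted p = 0.502 and 0.234). Hat1, which acetylates newly made H4, had 100 ± 9.18 CPM in LPS and 54.9 ± 9.69 CPM in saline (log2 fold change 0.86, edgeR adjusted p = 0.000285). In the CoREST complex, the partner of Kdm1a, 4 of 8 fell and 1 rose, with Zmym2 at 31.5 ± 5.48 CPM in LPS and 64.8 ± 5.53 CPM in saline (SD, n = 5 each; log2 fold change -1.04, edgeR adjusted p = 4.98e-05) and Zmym3 at a log2 fold change of -0.88. In the other deacetylase complexes the counts were 1 of 6 lower and 1 higher for NCoR and SMRT, 1 of 10 lower and 3 higher for NuRD, and 2 of 13 lower and 2 higher for Sin3. With the length trend removed 1, 0 and 0 of those falls and 1, 3 and 2 of those rises were still called. The leading genes of these complexes were Gps2 (0.52) and Tbl1x (-0.76), Mbd2 (0.92) and Gatad2a (0.44), and Sap30 (1.61). Of 18 genes of SAGA and ATAC, the complexes of Kat2a and Kat2b, 4 fell and 3 rose, with Ccdc101 at 1.10. Of these calls, 1 fall and 2 rises remained with the length trend removed. Of 23 genes of the complexes of Kat5, Kat6a, Kat7 and Kat8, 9 fell and 3 rose, with Jade1 at -1.27, Brd8 at -0.71 (-0.28 and not past the threshold with the length trend removed) and Morf4l2 at 0.94. With the trend removed, 1 of those 9 falls and 2 of those 3 rises were still called. Of 3 BET readers Brd3 fell (-0.67; -0.18 and not past the threshold with the length trend removed). Among 6 PRMT partners the Prmt5 cofactors Wdr77 (0.46) and Clns1a (0.47) rose and Coprs fell (-1.26). With the length trend removed, 18 of 181 companion genes with a length were called lower and 29 higher, 9.945% and 16.02%, where 18.4% and 20.1% of all genes were. The share called lower, above that of all genes before the trend was removed, was then below it. Of the 52 falls and 24 rises called before, 17 and 18 were called in the same direction in that fit.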

How the data were processed

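The authors deposited raw counts per gene in 1 table of 40789 genes, and 2 tables of normalised RPKM values, 1 of them mostly of protein-coding genes. Per the labels' protocols, RNA from each mouse (5 ng) was amplified with SMARTer chemistry and 6 ng of that product entered Ovation library preparation; no molecular identifier is mentioned, so reads are not independent molecules. The submitters' processing notes name featureCounts, GRCm38 and mm10. Aligner, annotation and strand use were not given in the sources used here.

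All 10 count columns entered a fit in edgeR 4.0.16 under R 4.3.3 (TMM factors, filterByExpr, quasi-likelihood F test, Benjamini-Hochberg adjustment over 13793 genes, threshold 0.05). No covariate entered the fit. Fold changes come from the fit, and their standard errors from log2 CPM with a prior count of 2. CPM are counts scaled with TMM factors. Deposited RPKM served to compare levels between genes, and with limma 3.58.1 on log2(RPKM + 1) as an alternative. Relative gene lengths were the ratio of counts to RPKM and covered 13198 genes. The length trend of each library was removed with a lowess offset (span 0.3). 1 line of the count table with no gene name was left out. Exonic overlaps came from GENCODE, and promoters from RefSeq, matched by Entrez gene ID. The fits were also run on simulated counts. These held no outlying mouse and no length trend of single libraries, so they do not vouch for the calls above.

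Each enzyme class was described by its count in each direction and its median. The rule for full values took, in each class, up to 4 called members a direction with a mean of at least 1 CPM, ranked by absolute log2 fold change, and the member with the highest mean RPKM; others are named by count or range or where a doubt attaches to them. Of each list of partners, called genes of smallest adjusted p could be named. Members, lists and tests were chosen with earlier results of these data known. Alternatives were other scalings, filters, pseudocounts and tools (DESeq2 1.42.0, limma-voom), a term for mouse number range, protein-coding genes only, removal of the length trend, and each mouse left out. The coding RPKM table, and the length trend removed together with LPS replicate 4 left out, were added after seeing the data. Each library came from a different mouse, per the labels.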

Additional observations from a re-analysis of the deposited data

Results flagged for a closer look

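Of 124 groups of 5 mice, 17 had a highest or lowest mouse whose gap to the next exceeded Dixon's limit, where chance flags about 1 in 20. LPS replicate 4 was the highest in 7 of them: Kdm1a had 23.5 CPM there (19.1 to 19.7 CPM in the other LPS mice), Kdm1b 19.3 CPM (9.46 to 11.2), Kdm3a 48.4 CPM (22.9 to 27.4), Kdm7a 164 CPM (81.8 to 102), Kmt2c 72.8 CPM (45.4 to 50.9), Prmt10 32.8 CPM (15.8 to 20.1) and Setd2 59.6 CPM (44.9 to 47.3). The same mouse had the lowest microglia marker sum of the LPS mice (13550 CPM) and the highest neutrophil sum (18.1 CPM). It also had their highest astrocyte sum (342 CPM) and their largest share of counts in the group of the longest genes (13.7%). The part of these in its enzyme levels was not tested.

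LPS replicate 1 was the highest of its group for Hdac11 (7.45 CPM, with 3.57 to 4.06 in the others) and Hdac7 (2.76 CPM, with 0.384 to 0.824), and the lowest for Kdm4a (4.69 CPM, with 6.26 to 6.75). LPS replicate 2 was the highest for Kat2a (62.3 CPM, with 34.9 to 40.1) and the lowest for Sirt3 (22.1 CPM, with 35.1 to 39.5). LPS replicate 5 was the lowest for Kat7 (34.99 CPM, with 50.2 to 53.7) and the highest for Sirt6 (27.01 CPM, with 16.3 to 19.02). With LPS replicate 2 left out, Sirt3 was called higher at a log2 fold change of 0.42 (edgeR adjusted p = 0.0232).

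Among saline mice, replicate 3 was the lowest for Prmt10 (14.3 CPM, with 19.6 to 20.4 in the others). Saline replicate 2 was the lowest for Setd1b (56.2 CPM, with 63.1 to 64.4) and the highest for Setd4 (10.8 CPM, with 7.64 to 8.55).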

How the results depend on the processing

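The count of members called higher was 7 as reported, 3 with library size as the only scaling, 14 with the gene-length trend removed and LPS replicate 4 left out, and 3 to 6 when each mouse was left out. The count called lower was 22 as reported, 13 with the trend removed and that mouse left out, and 19 to 24 when each mouse was left out. These counts are small, so a few genes near the threshold move them. No scaling moved the median of all genes by more than 0.1 on the log2 scale.

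With the gene-length trend removed the log2 fold change of 16 members changed sign, and of 18 with LPS replicate 4 also left out. Those called before or after the change were Kdm5c (0.18), Kmt2b (0.45), Kmt2d (0.33) and Setd1b (0.55) with all mice, and without that mouse Kdm5c (0.27), Kmt2b (0.40), Kmt2d (0.38), Setd1b (0.60), Hdac8 (0.67) and Sirt7 (-0.0535). In the other alternatives 9 members changed sign, Hdac4 without LPS replicate 4 among them; none was called as reported or there, and their turned values lay between -0.0857 and 0.0824. The length of Hdac8 implied by the RPKM values was 4.69 times that of the median tested gene, although its exons in GENCODE hold 1936 bases, so its corrected value is doubtful.

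Prmt2 lost its call in 19 of 25 alternatives, Prmt3 in 18, Prmt5 in 11 and Prmt7 in 9. Kdm5c, Kmt2d, Setd7 and Sirt7 were also near the threshold. Their calls were lost in 3, 4, 3 and 4 of the 10 fits that leave out a mouse. All of these calls also ended with the length trend removed. With LPS replicate 4 left out as well, Kmt2d was called higher (log2 fold change 0.38, edgeR adjusted p = 0.0274). Hdac9, Kat7, Kdm2a, Kdm6a, Kmt2a and Kmt2e lost theirs only with the length trend removed, and Setd2 only when LPS replicate 4 was left out as well. Leaving out the mouse changed the edgeR call of Sirt1, Setd3 and Setd5 for LPS replicate 4, of Sirt3 for LPS replicate 2 and of Prmt1 for LPS replicate 4 or saline replicate 2. No paired analysis was possible because each mouse has a number of its own and the labels pair no LPS mouse with a saline mouse. With the range of the mouse number as a term, 5 members were higher and 20 lower, and the calls of Kmt2d, Prmt2, Prmt3 and Sirt7 were lost (edgeR adjusted p = 0.0556, 0.0671, 0.0699 and 0.0585). Low raw counts limit Setd6, Hdac7 and Hdac11.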

Other observations

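DNA methylation enzymes and the supply of NAD lie next to the histone enzymes. Of 7 tested genes of DNA methylation and demethylation, 4 fell and 1 rose. Tet1, which oxidises methylcytosine, had 1.42, 1.23, 1.48, 1.52 and 1.72 CPM in LPS, against 16.3, 15.02, 17.3, 19.8 and 15.2 CPM in saline. No LPS mouse came near a saline mouse, and Tet1 was 11.3-fold lower (log2 fold change -3.49 ± 0.10 SE, edgeR adjusted p = 3.41e-08; -2.80 on the log2 scale with the length trend removed). That fall exceeded the fall of every one of the 62 tested histone-modifying enzyme genes. The other TET genes, Tet2 and Tet3, had log2 fold changes of -0.48 and -0.54, and 0.05 and 0.06, not past the threshold, with the length trend removed. The de novo methyltransferase gene Dnmt3a averaged 63.7 ± 13.3 CPM in LPS and 132 ± 22.97 CPM in saline (SD, n = 5 each; edgeR adjusted p = 0.000196), and its adjusted p was 0.0673 with the length trend removed. Uhrf1 was 2.84-fold higher with overlap between the groups.

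Of 10 tested genes of NAD salvage and sirtuin regulation, 2 rose and 2 fell. Nampt, the rate-limiting enzyme of NAD salvage, had 93.1, 63.8, 94.4, 86.5 and 64.3 CPM in LPS, against 48.8, 43.8, 41.4, 47.2 and 41.02 CPM in saline. The groups did not overlap and Nampt was 1.81-fold higher (log2 fold change 0.86 ± 0.14 SE, edgeR adjusted p = 0.000345). Nmrk1, a nicotinamide riboside kinase, also rose (0.85). Qprt, of the de novo route, averaged 0.865 ± 0.602 CPM in LPS and 2.86 ± 0.635 CPM in saline (SD, n = 5 each; edgeR adjusted p = 0.00801), and Sarm1, an NAD hydrolase, had a log2 fold change of -1.01. With the length trend removed the calls of Nmrk1 and Sarm1 ended (edgeR adjusted p = 0.0616 and 0.119).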
